A study of Mus musculus with 3 samples.

Results

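Natural killer (NK) cells of the mouse lung were taken from the droplets of 3 single-cell RNA libraries by their transcripts. A barcode with at least 1000 UMIs (unique molecular identifiers, each counting 1 captured RNA molecule), at least 500 genes and at most 10% mitochondrial UMIs was kept when it held at least 2 UMIs summed over the NK receptor genes Ncr1, Klrb1c, Klra8 and Klra4. It was allowed at most 1 UMI over Cd3d, Cd3e and Cd3g, 0 UMIs of Cd8b1, and at most 1 UMI over Cd79a, Epcam, Cdh5 and Marco. The rule gave 144 cells of 12458 kept barcodes. They were 34 of 5137 in PPARg-/- tumour (0.662%, exact 95% binomial interval 0.459 to 0.924%), 24 of 4374 in WT tumour (0.549%, 0.352 to 0.815%) and 86 of 2947 in WT healthy (2.92%, 2.34 to 3.59%). The cells were thus chosen by measured counts of these genes, whose levels describe the members and support nothing.

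The study compared lung tumours driven by a doxycycline-inducible human oncogene with and without the nuclear receptor PPARgamma in myeloid cells. PPARg-/- tumour mice carried Ccsp-rtTA;TetO-EGFRL858R with Pparγfl/fl and Csf1rCre. WT tumour mice carried Ccsp-rtTA;TetO-EGFRL858R with Pparγfl/fl and no Cre. WT healthy mice carried Ccsp-rtTA;TetO-EGFRL858R alone, without the floxed alleles, and the labels do not say how they were kept free of tumours. All mice were 16 to 20 weeks old, the labels give chow with 625 ppm doxycycline for every group, the club cell promoter Ccsp drove the rtTA, and the Csf1r promoter drove the Cre. Each group was 1 library of cells pooled from 3 mice, so differences between groups have no replicate check and no p-value can be given. The libraries mixed equal parts of 4 sorted populations, gated as CD45+CD11c+SigF+, CD45+CD11b+Ly6G-, CD45+CD3+ and CD45-EPCAM+, and the labels list no NK cells. The CD11b gate is the one that mouse NK cells can pass, CD11b marks their later stages, and the share of NK cells among all barcodes is set by the sort and the mixing.

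NK cells are lymphocytes that kill infected or transformed cells without a rearranged antigen receptor. They weigh signals from activating and inhibitory receptors, release granzymes and perforin from granules onto a target, and secrete interferon gamma and the chemokines of the CCL3, CCL4, CCL5 and XCL1 group. In the mouse they mature from CD27-bearing cells to CD11b-bearing cells that depend on the T-box factors Eomes and T-bet, and the late cells leave tissues through the sphingosine receptor S1PR5.

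Transcripts beyond the rule were checked against the name. Over all members of the rule, the granule protease gene Gzma had 7853 CPM (UMIs of a gene per 1000000 UMIs of the cells) in PPARg-/- tumour, 7334 in WT tumour and 12253 in WT healthy. CD8 T cells of the same libraries (Cd3 UMIs of at least 2 and a Cd8b1 UMI, no more than 1 receptor UMI) had 356, 134 and 326 CPM. In the 32 PPARg-/- cells described below Gzma had 13183 CPM, but it was among the genes that set those 32 apart, so that value is no check. Eomes had 365, 500 and 326 CPM in NK cells of PPARg-/- tumour, WT tumour and WT healthy, against 32.6, 37.5 and 51.2 CPM in CD8 T cells. The T cell receptor gene Trac, which the rule did not use, had 1 UMI in PPARg-/- tumour, 1 in WT tumour and 4 in WT healthy NK cells. Trbc1 was present in NK cells at 337, 300 and 211 CPM. Of the gamma delta T cell markers, 1 gene, Trdc, was measured in WT tumour over WT healthy. It was counted as lower, so it was present in WT healthy NK cells. Of the 12 markers of innate lymphoid cells of groups 2 and 3, none had a UMI in these NK cells of any library. After thinning each cell to 1000 UMIs, Gzma was seen in 32 of 34 PPARg-/- tumour, 19 of 24 WT tumour and 85 of 86 WT healthy members, against 61 of 656, 17 of 516 and 19 of 285 CD8 T cells. The other PPARg-/- values of NK cells here are those of 32 cells, for the following reason.

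Of the 34 PPARg-/- tumour members, 2 barcodes went against the label. They held 25936 and 22468 UMIs, where the other 32 held 1507 to 3511, and each passed the rule with 2 UMIs of Klrb1c. Neither had a UMI of Gzma, Nkg7, Prf1, Klrd1 or Klrk1, where each of the other 32 had 19 to 80 of them. They carried 1000 and 2120 UMIs of the macrophage lysozyme gene Lyz2, and 1329 and 2432 UMIs over a list of 12 monocyte and macrophage markers. Together they supplied 40.4% of the UMIs of the 34 members, so that leaving them out multiplies the CPM of every gene they lack by 1.68. Values for PPARg-/- tumour are therefore given for the 32 cells, with the value over all 34 beside the ratios the text turns on. In WT tumour, 1 member of 8833 UMIs held 21 UMIs of epithelial markers and 1 of 7683 UMIs held 48 UMIs of monocyte and macrophage markers, and in WT healthy 1 member held 27 UMIs of dendritic cell markers. All of those carried NK granule or lectin transcripts and were kept. The 2 WT tumour members held 8833 and 7683 of the 80042 UMIs of WT tumour NK cells, with 9 and 2 Gzma UMIs. Keeping them lowers the WT tumour CPM of genes they lack. Values without them are given only where stated.

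The members had a median of 2124 UMIs in PPARg-/- tumour (32 cells), 2821 in WT tumour and 3555.5 in WT healthy, and their summed UMIs were 71303, 80042 and 322455. The libraries held 44548318, 46148658 and 30454790 UMIs in the same order. Unless thinning is named, cells with a UMI of a gene are counted at each cell's own depth. The deeper cells of WT healthy can thus show a gene more often. No NK barcode occurred in another library. At the edge of the rule, 2, 2 and 3 members had exactly 2 receptor UMIs, and 11, 4 and 8 barcodes outside it met every other limit with 1 receptor UMI. NK cells of WT healthy carried 276 UMIs of the inactive X transcript Xist and 0 of the Y-linked Ddx3y, whereas those of PPARg-/- tumour and WT tumour carried 0 of Xist and 8 each of Ddx3y. Tumour, sex and the floxed alleles therefore cannot be told apart between WT tumour and WT healthy.

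**Figure D1:**
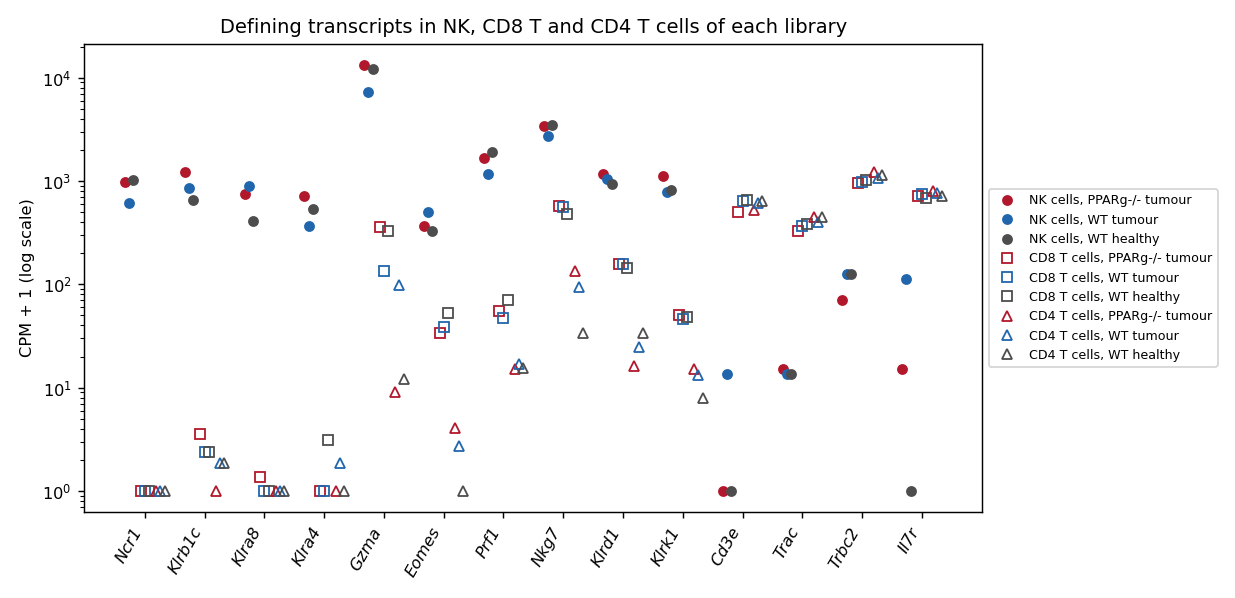
Level of 14 transcripts, as CPM plus 1 on a log scale, in NK cells (filled circles), CD8 T cells (squares) and CD4 T cells (triangles) of each library, each point being 1 library. Gzma stands at 13183 (32 PPARg-/- cells), 7334 and 12253 CPM in NK cells and at 356, 134 and 326 CPM in CD8 T cells, and Trac, Trbc2 and Il7r stand higher in T cells.

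Ratios between libraries are log2 ratios of summed CPM with an exact 95% interval that covers counting error only. A gene was measured when it had at least 20 UMIs over both libraries, and it was counted as higher or lower when it differed at least 1.5-fold with an interval that excluded no difference. This sorts genes by size and tests nothing between groups. Both comparisons use the WT tumour library, so a gene that is low in it by chance stands high in PPARg-/- tumour over WT tumour and low in WT tumour over WT healthy. The agreement of the 2 comparisons is therefore no result, and each is given by its own values.

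PPARg-/- tumour NK cells differed from WT tumour NK cells in effector, maturation and adhesion transcripts among others. The chemokine genes Ccl3, Ccl4 and Ccl5, the granzymes Gzma and Gzmb, the factors Irf8 and Klf2 and the integrins Itga4 and Itgb2 were higher in the 32 cells, and Xcl1, Ctla2a, Emb, Ccr2 and Cd7 were lower. Over all 34 barcodes Ccl5, Gzma, Gzmb and Klf2 were not counted. Without the WT tumour members rich in another cell type's markers, Ccl5, Gzma and Gzmb were not counted in the 32 cells either. With all 34 barcodes weighted equally, Ccl3 and Ccl4 were not counted. Of 1272 genes measured in the 32 and 24 cells, 75 were counted as higher (5.90%) and 54 as lower (4.25%). Over all 34 barcodes 1715 genes were measured, 153 were higher (8.92%) and 139 lower (8.10%), and of the 10 highest of these by the rule for named genes, C1qb, Apoe and Cybb led the list. Of the 75 genes higher in the 32 cells, 26 were also counted as higher over all 34, and of the 54 lower ones 41 were also counted as lower.

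WT tumour NK cells had lower levels than WT healthy NK cells of many maturation and immediate early transcripts, of several chaperones and of Ccl3, Ccl4, Ccl5 and Gzmb, and higher levels of Xcl1. Of the 16 measured genes of the terminal maturation list 13 were lower, among them S1pr5, Irf8 and Cma1, and 5 of 7 measured genes of the early list were higher. Over all genes 3362 were measured, 149 were counted as higher (4.43%) and 180 as lower (5.35%).

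The activating receptors came first in the rule. The natural cytotoxicity receptor gene Ncr1 had 982 CPM in PPARg-/- tumour, 612 in WT tumour and 1011 in WT healthy. Klrb1c, the NK1.1 antigen, had 1220, 862 and 657 CPM. The NKG2D gene Klrk1 had 1122 (668 over all 34), 787 and 813 CPM. The rule did not use Klrk1, but it was among the genes that set the 32 cells apart. The signalling adaptors Tyrobp and Fcer1g, which couple such receptors to kinases, had 3071, 2211 and 2456 CPM and 2258, 2111 and 1749 CPM. Of 14 measured genes of the activating list, 3 were higher and 0 lower in PPARg-/- tumour over WT tumour, namely Ncr1, Klra4 and Klrc2 (5.90% of all genes measured were higher). The rule used Ncr1 and Klra4 and did not use Klrc2. The call of Klrc2 still depended on leaving out the 2 barcodes, since its ratio was 0.02 over all 34. Over all 34 barcodes none of these 3 was counted, Fcgr3 was higher and Klrb1a and Klra8 were lower. The median log2 ratio of the list was 0.30 for the 32 cells and -0.18 over all 34. Of 20 measured in WT tumour over WT healthy 2 were higher, Klra8 and Klrc2, and 1 was lower, Ncr1 (median -0.05, against -0.06 for all genes measured). Of all genes 4.43% were higher and 5.35% lower.

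Klrc2, which encodes the activating lectin NKG2C, had 659 CPM in PPARg-/- tumour, 387 in WT tumour and 223 in WT healthy, which is the order of the libraries from high to low, and the 2 tumour libraries stood above the healthy one. Its ratio was 0.77 for PPARg-/- tumour over WT tumour (0.08 to 1.47, and 0.02 over all 34) and 0.79 for WT tumour over WT healthy (0.14 to 1.42). The lectin gene Klrb1f had 196, 437 and 127 CPM in the same order and was highest in WT tumour, at ratios of -1.16 (-1.90 over all 34) and 1.78. Klrb1f was counted in the list called inhibitory and not in the activating list. These data do not show how it signals, so the counts of both lists depend on that placing. Klrg1, an inhibitory receptor of late NK cells, had 280, 125 and 273 CPM, and was present in 10 of 32, 5 of 24 and 44 of 86 cells.

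The Ly49 receptors, encoded by the Klra genes on chromosome 6, bind MHC class I and are each switched on in part of the NK cells of an animal. Of these, 6 had more than 4 UMIs in a library. Klra3 had 589 CPM in PPARg-/- tumour, 525 in WT tumour and 180 in WT healthy. Klra7 had 154, 237 and 571 CPM. Klra1 had 8, 6 and 74 UMIs, of which 7 of the 8 lay in 1 PPARg-/- tumour cell. Klra9 had 856, 400 and 412 CPM. The activating members Klra8 and Klra4, both used by the rule, had 743, 900 and 409 CPM and 715, 362 and 533 CPM.

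Both tumour libraries thus stood above WT healthy for Klra3 and Klra8 and below it for Klra1 and Klra7. Over all 34 barcodes PPARg-/- tumour had 443 CPM of Klra8, near the 409 of WT healthy, and 351 CPM of Klra3 against 180. The ratio of WT tumour over WT healthy was 1.54 for Klra3 (0.94 to 2.14) and 1.14 for Klra8, and -1.27 for Klra7 (-2.03 to -0.58) and -1.61 for Klra1 (-3.11 to -0.42). Klra9 stood in PPARg-/- tumour over WT tumour at 1.10 (0.46 to 1.76, and 0.35 over all 34) and Klra4 at 0.98 (0.23 over all 34). Klra5, Klra6, Klra10 and Klra17 had between 0 and 4 UMIs in any library. The Klra genes are near-identical copies and their alleles differ between mouse strains, so how the authors' counting divided reads among them is uncertain, and the strain of each mouse is not given. The median NK cell had UMIs of 2 of these 6 genes in each library, and 25 of 32, 18 of 24 and 65 of 86 cells had at least 2. After thinning to 1000 UMIs the medians were 2, 2 and 1 genes, and 19 of 32, 13 of 24 and 40 of 86 cells had at least 2. The rule used 2 of the 6, Klra4 and Klra8.

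**Figure D2:**
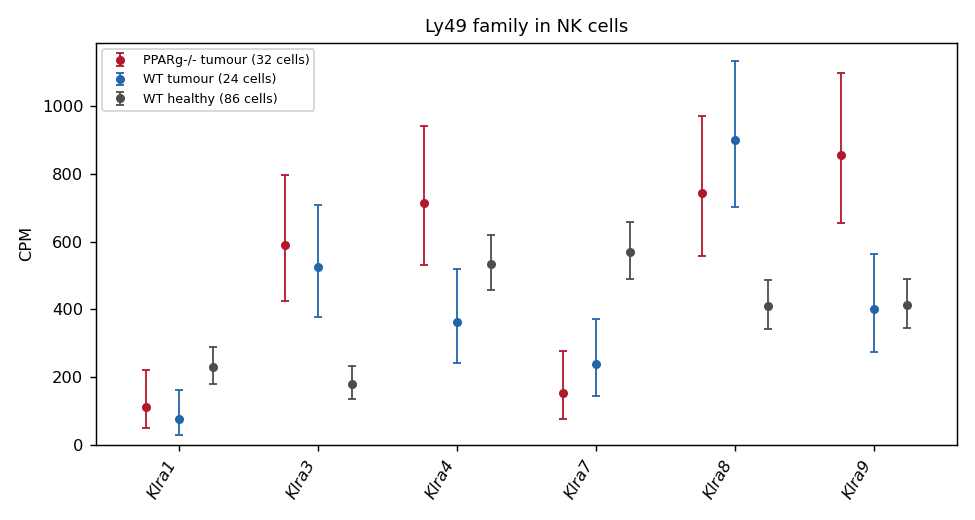
Level of 6 Klra genes (Ly49 receptors) in NK cells of PPARg-/- tumour (32 cells), WT tumour (24 cells) and WT healthy (86 cells), in CPM with exact 95% Poisson intervals of the summed UMIs. Klra3 and Klra8 stand above WT healthy in both tumour libraries, and Klra1 and Klra7 below it.

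Against CD8 T cells of the same library, 66 of 7071 genes measured in all 3 libraries were at least 4-fold higher in NK cells in each of them (0.933%), and 52 were at least 4-fold lower (0.735%). With all 34 PPARg-/- barcodes 55 were higher (0.778%) and 40 lower (0.566%). The rule chose cells by some of these genes, so the counts describe the class. By pooled ratio the 12 highest were the rule genes Ncr1, Klra8, Klra4 and Klrb1c, then Klri2, Klra3, Xcl1, Klra9, Gzma, Klrb1b, Klrb1f and Prf1. The pore-forming protein gene Prf1 had 1669 (994 over all 34), 1162 and 1898 CPM in NK cells of PPARg-/- tumour, WT tumour and WT healthy, against 53.7, 46.7 and 70.2 CPM in CD8 T cells. Prf1 and Gzma were among the genes that set the PPARg-/- cells apart from the barcodes left out. Gene lists shared the pattern unevenly. Higher were 9 of 22 genes of the activating list and 9 of 23 of the list called inhibitory, Klrb1f and Klri2 among the latter. So were 7 of 23 cytotoxic genes and 5 of 16 secreted factors, but 1 of 22 homing genes and 0 of 23 interferon response genes. Over all 34 barcodes these counts were 9, 8, 6, 3, 0 and 0, and 4 of the 9 activating genes were the receptors of the rule.

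The promoters of 3 of these genes show what was searched across them. RUNX and T-box proteins are known regulators of NK cells, and their 6-letter cores TGTGGT and AGGTGT were searched on both strands in the 250 bases before each RefSeq transcription start, with no overlap between the motifs in the windows printed. The sequences are from RefSeq on GRCm38.p6, read along the strand of the gene, with core matches in capitals. They are Ncr1 at chr7:4337465-4337714 on the plus strand, Gzma at chr13:113100982-113101231 on the minus strand and Prf1 at chr10:61297586-61297835 on the plus strand.
Ncr1: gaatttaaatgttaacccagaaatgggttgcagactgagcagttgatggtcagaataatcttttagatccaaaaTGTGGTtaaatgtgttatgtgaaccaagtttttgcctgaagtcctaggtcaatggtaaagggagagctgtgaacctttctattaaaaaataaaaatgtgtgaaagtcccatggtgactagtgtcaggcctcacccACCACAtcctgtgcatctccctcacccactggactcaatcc
Gzma: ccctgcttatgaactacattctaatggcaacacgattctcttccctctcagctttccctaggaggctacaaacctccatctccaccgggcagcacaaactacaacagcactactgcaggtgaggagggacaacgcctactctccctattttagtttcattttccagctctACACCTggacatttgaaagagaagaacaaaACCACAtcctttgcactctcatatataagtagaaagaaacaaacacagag
Prf1: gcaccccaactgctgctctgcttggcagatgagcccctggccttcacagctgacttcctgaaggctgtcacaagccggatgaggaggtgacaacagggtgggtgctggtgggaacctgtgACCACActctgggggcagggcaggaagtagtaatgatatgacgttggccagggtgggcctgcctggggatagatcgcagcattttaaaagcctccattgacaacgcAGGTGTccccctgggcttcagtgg
The Ncr1 window holds 2 RUNX cores and 0 T-box cores, and the Gzma and Prf1 windows each hold 1 of either. Of the 64 genes higher in NK cells than in CD8 T cells that were not set aside as model or antigen receptor genes, 49 had a promoter in the RefSeq table. A RUNX core was in 13 of those 49 windows (26.5%), 5 of them among the 11 Klr gene promoters, against 10.6% of the 5681 promoters of genes measured in all libraries and 14.2% of all 27025 promoters. A T-box core was in 6 of the 49 (12.2%), against 494 of the 5681 (8.70%) and 3241 of the 27025. Cells were chosen by some of these genes. The 13 windows with a RUNX core included those of Ncr1 and Klrb1c, which the rule used. They also included Gzma, Prf1, Nkg7 and Klrk1, which were among the genes that set the PPARg-/- cells apart. The 6 windows with a T-box core included those of Gzma, Prf1 and Nkg7. Shares without these genes were not tested, so both shares describe the set as chosen. A match describes the letters of a window and is not a bound site.

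Among the cytotoxic genes, Gzma had 13183 CPM in PPARg-/- tumour, 7334 in WT tumour and 12253 in WT healthy, so that WT tumour stood lowest. The log2 ratio was 0.85 in PPARg-/- tumour over WT tumour (0.70 to 1.00, and 0.10 over all 34) and -0.74 in WT tumour over WT healthy (-0.87 to -0.62). Of all members, 2 of 34 in PPARg-/- tumour, 4 of 24 in WT tumour and 0 of 86 in WT healthy had no Gzma UMI, the 2 being those left out for that and other absent transcripts, and single cells reached 60, 86 and 224 UMIs. Gzmb, the caspase-activating granzyme, had 870, 512 and 1160 CPM. Its ratio was 0.76 (0.17 to 1.37, and 0.02 over all 34) and -1.18 (-1.68 to -0.71). Prf1 gave a ratio of 0.52 (-0.23 over all 34), which was not counted, and of -0.71. The mast cell type chymase gene Cma1, which mouse NK cells also transcribe, had 238, 112 and 409 CPM and was in 13 of 32, 9 of 24 and 54 of 86 cells.

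Over the cytotoxic list 3 of 12 measured genes were higher and 0 lower in PPARg-/- tumour over WT tumour (Gzma, Gzmb and the lysosomal protease gene Ctsd), where 5.90% of all genes were higher. The list's median was 0.42 for the 32 cells and -0.16 over all 34. Over all 34 barcodes 3 were higher and 1 lower (8.92% and 8.10% of all genes), and those higher were Ctsd, Ctsc and Lamp1. Of 17 measured in WT tumour over WT healthy 0 were higher and 8 lower (median -0.57), where 5.35% of all genes were lower. Among the 8 were the granzyme inhibitors Serpinb6b and Serpinb9 with 175 against 394 CPM and 287 against 574 CPM. In CD8 T cells the median of the list was 0.24 and 0.01 in the same 2 comparisons. When the 2 WT tumour and 1 WT healthy members with over 20 UMIs of another cell type's markers were left out, the ratio of WT tumour over WT healthy was -0.44 for Gzma, -0.38 for Prf1 and -0.46 for Ncr1, and none of the 3 was counted as lower. With the same WT tumour members left out, the 32 PPARg-/- tumour cells gave ratios over WT tumour of 0.54 for Gzma, 0.50 for Gzmb, 0.52 for Ctsd and 0.41 for Ncr1, and none of these was counted as higher.

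Secreted chemokines varied widely between cells. Ccl5 had 17306 CPM in PPARg-/- tumour, 10207 in WT tumour and 20573 in WT healthy, with ratios of 0.76 (0.63 to 0.89, and 0.01 over all 34) and -1.01 (-1.12 to -0.91). Without the 2 marker-rich WT tumour members the first ratio was 0.52 and was not counted. Ccl4 had 1543, 587 and 2866 CPM and Ccl3 had 631, 225 and 980 CPM. WT tumour was lowest for all 3 genes and WT healthy highest. The ratio of Ccl4 was 1.39 (0.89 to 1.92, and 0.65 over all 34) and -2.29 (-2.74 to -1.86), and that of Ccl3 was 1.49 (0.67 to 2.36, and 0.95 over all 34) and -2.12 (-2.90 to -1.44). In CD8 T cells both were also higher in PPARg-/- tumour over WT tumour, Ccl3 at 2.85 with 52.9 against 7.32 CPM and Ccl4 at 1.08 with 122 against 57.6 CPM. The CD8 T cells were not cleared of barcodes rich in macrophage transcripts. All 12 monocyte and macrophage markers were higher in them too (median 1.84), where 7.13% of all genes were higher. The part of those transcripts in the CD8 values of Ccl3 and Ccl4 was not tested. One PPARg-/- cell held 55 of the 110 Ccl4 UMIs of its library, 1 WT tumour cell 26 of 47 and 1 WT healthy cell 188 of 924. Ccl4 was in 14 of 32, 8 of 24 and 61 of 86 cells, and Ccl3 in 11, 5 and 65. With cells weighted equally, the higher level of Ccl3 and Ccl4 in PPARg-/- tumour was no longer counted.

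Xcl1, the chemokine that attracts cross-presenting dendritic cells, had 407 CPM in PPARg-/- tumour, 925 in WT tumour and 385 in WT healthy, and WT tumour was highest. Its ratio was -1.18 (-1.86 to -0.55, and -1.93 over all 34) and 1.27 (0.83 to 1.69), and it was in 7 of 32, 15 of 24 and 29 of 86 cells. After thinning to 1000 UMIs the shares were 5 of 32 (15.6%), 10 of 24 (41.7%) and 19 of 86 (22.1%), against at most 0.969% of CD8 T cells in any library, whose median depths were 3201, 3545 and 4437 UMIs. The interferon gamma gene Ifng had 140, 99.9 and 288 CPM and rested on 10, 8 and 93 UMIs. Of the secreted factor list 3 of 4 measured genes were higher and 1 lower in PPARg-/- tumour over WT tumour, against 5.90% and 4.25% of all genes. Over all 34 barcodes 2 were higher and 1 lower (8.92% and 8.10% of all genes). In WT tumour over WT healthy 2 of 9 were higher and 4 lower (4.43% and 5.35% of all genes).

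**Figure D3:**
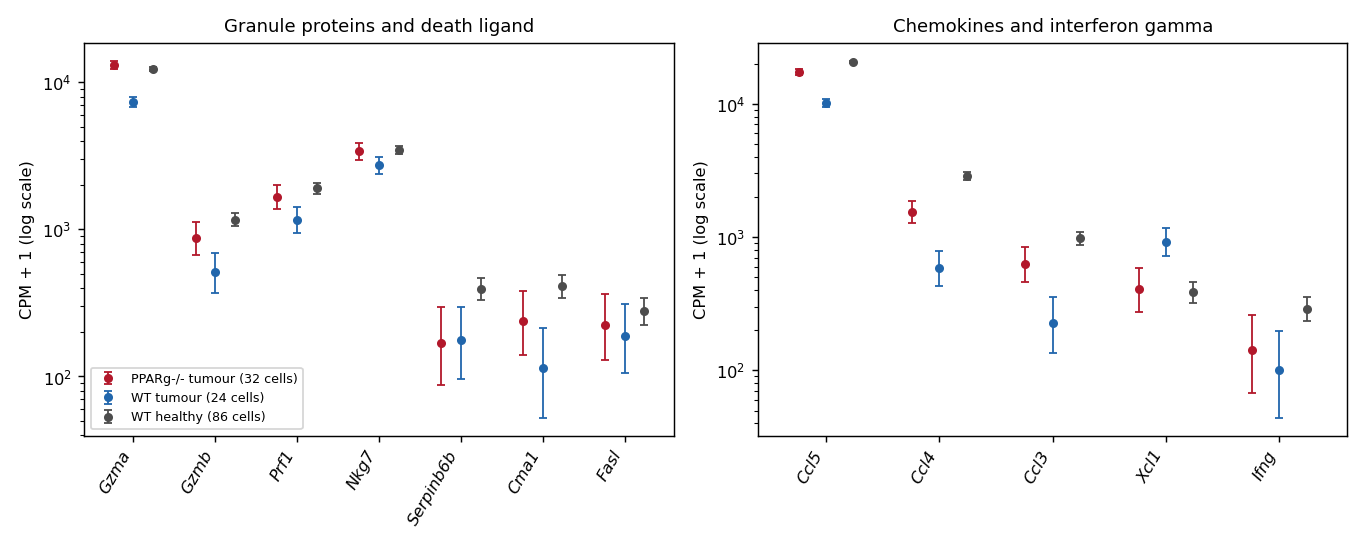
Level of cytotoxic genes (left) and of chemokine and interferon gamma genes (right) in NK cells of PPARg-/- tumour (32 cells), WT tumour (24 cells) and WT healthy (86 cells), as CPM plus 1 on a log scale with exact 95% Poisson intervals. Gzma, Ccl5, Ccl4 and Ccl3 are lowest in WT tumour, and Xcl1 is highest there at 925 CPM.

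The terminal maturation list holds 16 genes of late mouse NK cells, and Gzmb, Cma1 and Serpinb9 are in both this and the cytotoxic list. In WT tumour over WT healthy all 16 were measured, 13 were lower, 2 higher and the median was -1.07, against 5.35% lower and a median of -0.06 among all genes. In CD8 T cells of the same libraries the median of the list was 0.07. S1pr5, the egress receptor, had 196 CPM in PPARg-/- tumour, 37.5 in WT tumour and 233 in WT healthy, and WT tumour held 3 UMIs in 3 of 24 cells, against 14 UMIs in 10 of 32 PPARg-/- cells and 75 UMIs in 46 of 86 WT healthy cells. Its ratio for WT tumour over WT healthy was -2.63 (-4.94 to -1.03), and PPARg-/- tumour and WT tumour together held fewer than 20 UMIs, so that comparison was not counted. The 2 exceptions were Ly6c2, a surface antigen of memory-like and late lymphocytes, with 743, 575 and 164 CPM, and the fractalkine receptor gene Cx3cr1, of whose 11 UMIs in WT tumour 9 lay in 1 cell. The other gene, Prdm1, had 11, 3 and 31 UMIs.

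In PPARg-/- tumour over WT tumour 14 genes of the maturation list were measured, 6 were higher and 0 lower, and the median was 0.74, against 5.90% higher and a median of 0.03 among all genes. Over all 34 barcodes 2 were higher (8.92% of all genes) and the median was 0.14. For the 32 cells without the 2 WT tumour members rich in epithelial or myeloid UMIs 3 were higher (42 of all 1110 genes measured) and the median was 0.57. In CD8 T cells of the same libraries 6 of 15 genes of the list were higher and 0 lower, at a median of 0.39 (7.13% of all genes measured in CD8 T cells were higher). The interferon regulatory factor gene Irf8 had 841 CPM in PPARg-/- tumour, 375 in WT tumour and 1182 in WT healthy, with ratios of 1.17 (0.51 to 1.85, and 0.66 over all 34) and -1.66 (-2.24 to -1.12). Irf8 was higher in PPARg-/- tumour over WT tumour in CD8 T cells too, at 1.22, with 56.6 against 24.2 CPM. All 12 monocyte and macrophage markers were also higher in those CD8 T cells (median 1.84). The part of macrophage transcripts in the CD8 values of Irf8 and of the maturation list was not tested. Klf2, a factor that keeps lymphocytes circulating, had 1052, 437 and 902 CPM, with ratios of 1.27 (0.67 to 1.89, and 0.58 over all 34) and -1.05 (-1.60 to -0.54). The calcium-binding protein gene S100a6 had 1178, 487 and 1067 CPM, with ratios of 1.27 (1.38 over all 34) and -1.13. WT tumour was the lowest of the 3 libraries for each of these genes.

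The early or CD27 stage list holds genes of less mature NK cells, and Xcl1 is in both this and the secreted factor list. Of its 16 genes, 7 were measured in WT tumour over WT healthy and 5 in PPARg-/- tumour over WT tumour, and the rule itself limited 1 of the 16, Cd3g. In WT tumour over WT healthy 5 of 7 were higher and 0 lower (median 1.18), where 4.43% of all genes were higher. In PPARg-/- tumour over WT tumour 0 of 5 were higher and 5 lower (median -1.29), where 4.25% of all genes were lower. Over all 34 barcodes 4 were lower (median -1.93), where 8.10% of all genes were lower. In CD8 T cells the medians were 0.11 for WT tumour over WT healthy and -0.15 for PPARg-/- tumour over WT tumour.

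Ctla2a, a cysteine protease inhibitor gene, had 323 CPM in PPARg-/- tumour, 925 in WT tumour and 419 in WT healthy. Its ratio was -1.52 (-2.26 to -0.83, and -2.27 over all 34) and 1.14 (0.71 to 1.56). The cell surface glycoprotein gene Emb had 56.1, 300 and 40.3 CPM and lay in 3 of 32, 8 of 24 and 7 of 86 cells. Cd7 had 112, 275 and 136 CPM, and Ly6e, an interferon-inducible surface protein gene, 309, 625 and 177 CPM with 15 of its 50 WT tumour UMIs in 1 cell. Cd27 itself had 5, 9 and 16 UMIs and was under the limit or not counted. The interleukin 7 receptor gene Il7r, chosen for mention after its values were seen, had 1, 9 and 0 UMIs, the 9 of WT tumour lying in 4 cells.

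**Figure D4:**
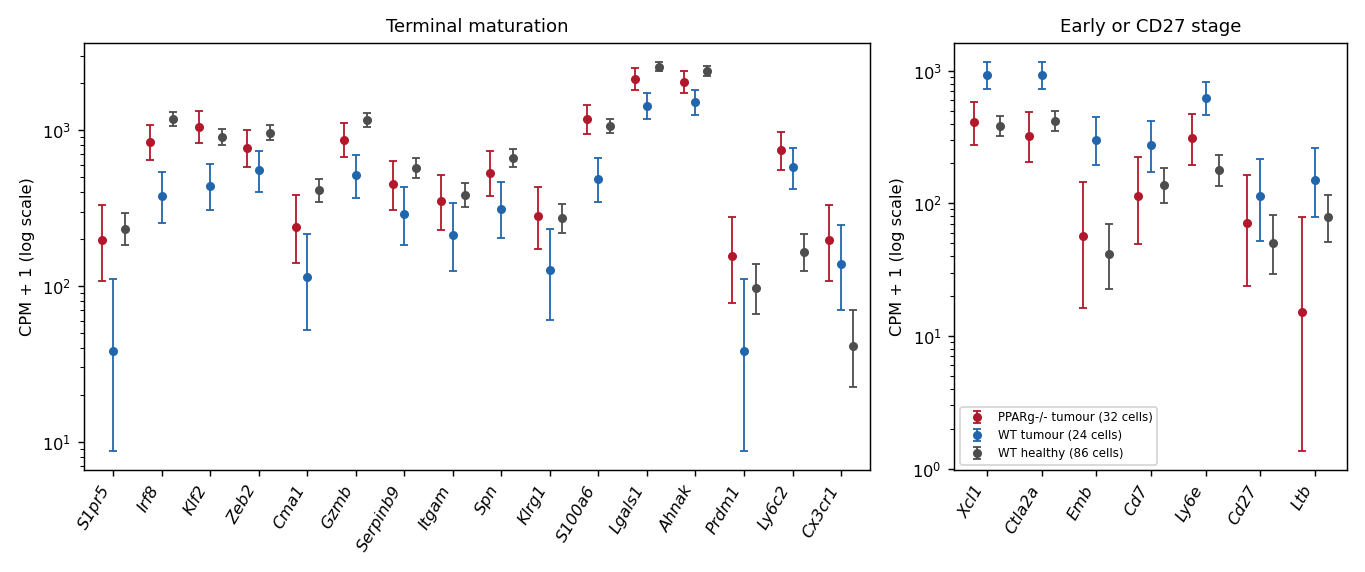
Level of the 16 terminal maturation genes (left) and of 7 early stage genes (right) in NK cells of PPARg-/- tumour (32 cells), WT tumour (24 cells) and WT healthy (86 cells), as CPM plus 1 on a log scale with exact 95% Poisson intervals. Of the maturation genes, 13 are lower in WT tumour than in WT healthy, Ly6c2 and Cx3cr1 are higher, and Xcl1, Ctla2a, Emb, Cd7 and Ly6e are highest in WT tumour.

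Within a library the lists separated single cells. The maturation genes made up a median of 1.16% of a cell's UMIs in PPARg-/- tumour (32 cells, range 0.420 to 2.51%), 0.691% in WT tumour (0.102 to 2.37%) and 1.30% in WT healthy (0.482 to 2.76%). The early genes made up a median of 0.113, 0.296 and 0.0742%, with highest values of 0.697, 0.981 and 0.796%. All ranges overlapped. Early UMIs equalled or passed maturation UMIs in 0 of 32, 5 of 24 and 2 of 86 cells, and the upper end of the exact 95% interval for the PPARg-/- share was 10.9%. Of the 5 WT tumour cells, 1 was the member of 8833 UMIs with epithelial markers, at 26 early and 9 maturation UMIs. That member also had the lowest maturation share, 0.102%. Cells of 1 pool are not replicates, so these ranges describe each library.

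**Figure D5:**
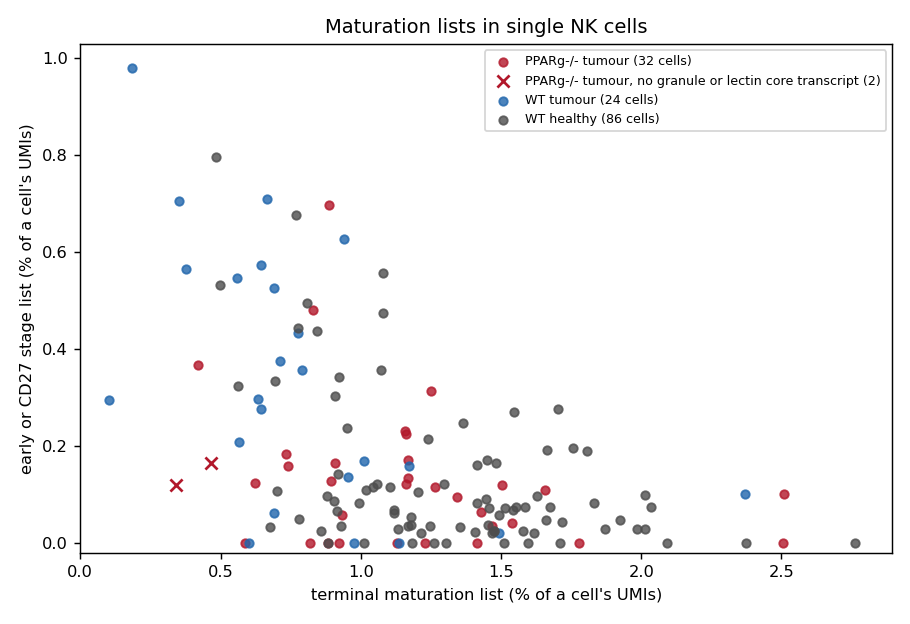
Share of each NK cell's UMIs in the terminal maturation list (x axis, percent) and in the early or CD27 stage list (y axis, percent), with 1 point per cell and crosses for the 2 PPARg-/- barcodes without NK granule or lectin transcripts. WT tumour cells have the highest median early share, 0.296%, and the lowest median maturation share, 0.691%.

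Of the transcription factors that build the lineage, the T-bet gene Tbx21 had 252 CPM in PPARg-/- tumour, 112 in WT tumour and 323 in WT healthy, whereas Eomes had 365, 500 and 326 CPM. Tbx21 was lowest and Eomes highest in WT tumour. The ratio of WT tumour over WT healthy was -1.52 for Tbx21 (-2.69 to -0.54) and 0.62 for Eomes (0.05 to 1.16). That of PPARg-/- tumour over WT tumour was 1.17 for Tbx21 (-0.06 to 2.50, and 0.42 over all 34) and -0.45 for Eomes (-1.23 to 0.29), neither counted, and over all 34 barcodes Eomes was counted as lower at -1.20. The repressor gene Zeb2, which acts with T-bet, had 771, 550 and 961 CPM. Of the factor list 2 of 13 measured genes were higher and 0 lower in PPARg-/- tumour over WT tumour, against 5.90% and 4.25% of all genes. Over all 34 barcodes 2 were higher and 3 lower, against 8.92% and 8.10% of all genes. In WT tumour over WT healthy 2 of 22 were higher and 5 lower, against 4.43% and 5.35% of all genes.

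Receptors for the activating interleukins were measured next. The interleukin 18 receptor chain genes differed in direction, since Il18r1 had 379, 350 and 143 CPM and Il18rap had 547, 337 and 580 CPM in PPARg-/- tumour, WT tumour and WT healthy. Stat4, which carries the interleukin 12 signal, had 337, 525 and 229 CPM, with a ratio of 1.19 in WT tumour over WT healthy (0.61 to 1.76). The shared interleukin 2 and 15 receptor chain gene Il2rb had 659, 750 and 915 CPM and was in 24 of 32, 24 of 24 and 79 of 86 cells. In this list 1 of 8 measured genes was higher and 0 lower in PPARg-/- tumour over WT tumour, against 5.90% and 4.25% of all genes. Over all 34 barcodes 0 were higher and 2 lower (8.92% and 8.10% of all genes). In WT tumour over WT healthy 2 of 16 were higher and 1 lower (4.43% and 5.35% of all genes).

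Among adhesion and homing genes the integrin chains Itga4 and Itgb2 were lowest in WT tumour. Itga4, a chain of the VLA-4 integrin, had 1543 CPM in PPARg-/- tumour, 550 in WT tumour and 1104 in WT healthy, with ratios of 1.49 (0.97 to 2.03, and 0.87 over all 34) and -1.01 (-1.49 to -0.55). Itgb2, the shared beta chain of LFA-1 and CD11b, had 870, 362 and 862 CPM, with ratios of 1.26 (1.29 over all 34) and -1.25. Itgam, the CD11b gene and so tied to the sort gate, had 351, 212 and 385 CPM. The monocyte chemokine receptor gene Ccr2 had 238, 600 and 406 CPM, and was lower in PPARg-/- tumour over WT tumour at -1.33 (-2.22 to -0.51, and -2.08 over all 34). Of the list 3 of 11 were higher and 1 lower in PPARg-/- tumour over WT tumour, against 5.90% and 4.25% of all genes. Over all 34 barcodes 3 were higher and 2 lower (8.92% and 8.10% of all genes). In WT tumour over WT healthy 2 of 16 were higher and 4 lower (4.43% and 5.35% of all genes). Of 18 genes of resident type 1 innate lymphoid cells and tissue residency, 4 were measured in WT tumour over WT healthy. Xcl1 was higher, and the retention gene Cd69 and the signalling regulators Rgs1 and Rgs2 were lower, Rgs1 with 196, 262 and 571 CPM. The residency integrin gene Itga1 had 1, 3 and 2 UMIs and Cxcr6 0, 3 and 0.

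Genes that respond within minutes to activation or to tissue digestion were lower in WT tumour than in WT healthy in 7 of 11 cases and higher in 0 (median -1.24). Of all genes measured in NK cells 5.35% were lower. Junb had 210 CPM in PPARg-/- tumour, 150 in WT tumour and 527 in WT healthy, and Nr4a2 had 28.0, 62.5 and 329 CPM. Chaperone genes were lower in 6 of 13 and higher in 0 (median -0.87, beside the same 5.35%), with Hspa8 at 1038, 1112 and 2034 CPM. CD8 T cells of the same comparison had medians of -0.20 for the immediate early list and -0.64 for the chaperones, with 4 of 14 immediate early genes and 8 of 14 chaperone genes lower (4.85% of all genes measured in CD8 T cells were lower). The part of handling in these values was not tested. In PPARg-/- tumour over WT tumour 1 of 5 immediate early genes was higher (5.90% of all genes), Nr4a1, with 24 of its 29 UMIs in 1 cell. Over all 34 barcodes 3 were higher (8.92% of all genes).

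Ptgr1, a prostaglandin and leukotriene reductase gene, had the lowest ratio of the ranked genes in WT tumour over WT healthy. It had 0 UMIs in the 32 PPARg-/- tumour cells, 1 UMI in WT tumour (12.5 CPM) and 192 UMIs in WT healthy (595 CPM), the last spread over 54 of 86 cells with at most 20 in 1 cell. The ratio of WT tumour over WT healthy was -5.57 (-10.89 to -3.08). After thinning, 0 of 32, 0 of 24 and 26 of 86 NK cells had a UMI (30.2%, 20.8 to 41.1%), where exact 95% intervals for 0 cells reach 10.9% and 14.2%, over cells of 1 pool each and for cells with a UMI rather than cells that use the gene, and in CD8 T cells 2 of 656, 0 of 516 and 0 of 285 did. The 2 PPARg-/- barcodes without NK granule transcripts held 8 UMIs of it. Other low genes in WT tumour over WT healthy by the same rule included the G protein chain gene Gng10 (84.1, 62.5 and 298 CPM) and the chaperone adaptor gene Stip1 (56.1, 37.5 and 167 CPM), and the high ones Ly6e, Nmt1 (196, 412 and 155 CPM) and the cystatin gene Cst3, with 27 of its 56 WT tumour UMIs in 1 cell.

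In PPARg-/- tumour over WT tumour the highest ranked genes among the 32 cells were the 14-3-3 beta gene Ywhab, with 547 against 137 CPM (1.99, 1.00 to 3.11, and 1.63 over all 34), and the membrane-bending protein gene Bin2, with 575 against 187 CPM (1.62, 0.73 to 2.58, and 0.97 over all 34). The lowest included Cst3 at -1.73, which stood at 0.78 over all 34, and the translation factor gene Eef1b2 at -0.77 (-0.76 over all 34). Of the proliferation list 5 of 6 measured genes were lower in WT tumour over WT healthy (median -1.34, beside 5.35% of all genes lower). They included Mki67, with 0, 1 and 39 UMIs in PPARg-/- tumour, WT tumour and WT healthy, 36 of the 39 in 1 WT healthy cell. Another was the replication clamp gene Pcna, with 42.1, 62.5 and 161 CPM and at most 4 UMIs in a cell. Ifitm3, an antiviral membrane protein gene, had 2, 30 and 3 UMIs with 16 of the 30 in 1 cell. The checkpoint receptor genes Pdcd1, Lag3 and Ctla4, chosen for mention after their values were seen, had 0 UMIs in all 3 groups of NK cells, and Tigit had 0, 0 and 2. This does not hold for inhibitory receptors of NK cells in general. Klrc1 had 98.2, 175 and 130 CPM and Klrg1 280, 125 and 273 CPM in PPARg-/- tumour, WT tumour and WT healthy.

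Pparg, the gene deleted in Csf1r-expressing cells, had 0 UMIs in the 32 PPARg-/- tumour, 24 WT tumour and 86 WT healthy NK cells, so no deletion can be read from them. All 22 Pparg UMIs of the PPARg-/- members lay in the 2 barcodes without NK granule transcripts. Csf1r itself had 1, 3 and 2 UMIs, and the oestrogen receptor gene Esr1 1, 1 and 3.

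Transcripts of other lung cells were present beside these values. The alveolar macrophage list summed to 309 CPM in PPARg-/- tumour NK cells, 487 in WT tumour and 220 in WT healthy, the monocyte and macrophage list to 1711, 1124 and 344 CPM, and the epithelial list to 505, 875 and 189 CPM. The same lists reached 10393, 13591 and 14764 CPM, 61781, 25103 and 15346 CPM, and 25339, 33849 and 24660 CPM in barcodes of 10 to 100 UMIs, which hold free RNA. Lyz2 had 1108, 800 and 226 CPM in NK cells, against 8468, 2979 and 784 CPM in CD8 T cells, and the surfactant gene Sftpc had 379, 525 and 27.9 CPM in NK cells. The part of this background in the differences between libraries was not tested.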

How the data were processed

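Cells sorted from pooled lungs were profiled with droplet 3' RNA sequencing, 1 library per group. The deposited matrices hold UMI counts per gene and barcode on mm10 for 32285 genes, per the file headers; the headers name Cell Ranger 4, and Cell Ranger 6.0.1 and Seurat 4.0.1 are in the submitters' processing notes. The matrices are unfiltered, and 0 columns belong to samples of another series. Counts were summed over the NK cells of a library, scaled to CPM and compared as log2 ratios with exact conditional binomial (Clopper-Pearson) 95% intervals, which cover counting error only. No test between groups was possible with 1 library each. Members, gene lists and rules were chosen with earlier results of these data known, and the split into 32 and 34 PPARg-/- tumour barcodes was made after seeing the data.

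The text names the rule's markers, the genes of each list that are most abundant or have the highest or lowest ratios, the 10 highest and 10 lowest ratios among counted genes with at least 50 UMIs (leaving out sex-linked, mitochondrial, ribosomal and model-named genes, genes with over 50% of UMIs in 1 cell and genes rich in free RNA), and the 12 highest ratios over CD8 T cells; checkpoint, nuclear receptor and other genes at or near 0 were added after their values were seen. For a list's median, a gene at 0 in 1 library was set to 3 counts. Scrublet in scanpy 1.11.5 marked 146 of 5137, 102 of 4374 and 66 of 2947 barcodes as doublets (PPARg-/- tumour, WT tumour, WT healthy), 0 of them members; doublets were kept. The steps were tested on simulated data and run with python 3.11.15, numpy 2.4.6, scipy 1.17.1 and pandas 2.3.3. The values of 1 gene of the lists are not reported here.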

Additional observations from a re-analysis of the deposited data

How the results depend on the processing

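No paired analysis was possible because each group is 1 library. With 24 to 86 cells a group, low genes are limited by counting, and no setting replaces a replicate. At least 2000 UMIs per barcode left 21 of the 34 PPARg-/- tumour members. In PPARg-/- tumour over WT tumour, 153 genes were higher and 139 lower over all 34 barcodes. The counts were 76 and 54 with at least 3 receptor UMIs, 101 and 84 with no Cd3 UMI, 66 and 50 with Gzma, Eomes, Prf1 and Klre1 in place of the receptors, and 91 and 90 at no more than 5% mitochondrial UMIs. They were 18 and 17 after thinning, 75 and 54 without the 2 barcodes lacking NK granule transcripts, 42 and 44 also without members rich in another type's markers, 70 and 55 at 50 UMIs, and 248 and 290 with no filter. The higher count was 98 with cells weighted equally and 57 without each gene's top cell. In WT tumour over WT healthy, 149 higher genes became 45 after thinning, 65 at 50 UMIs, 452 with no filter and 49 without each gene's top cell, and 180 lower genes became 47 after thinning.

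Signs turned in PPARg-/- tumour over WT tumour, against the value over all 34 barcodes, as follows. With at least 3 receptor UMIs the ratio was -1.77 for Cst3 and -0.021 for Atp6v0c. With the other 4 genes as receptors it was -0.61 for Cst3, -0.15 for Cd9, -0.22 for Prdx1 and 0.27 for Srgn, and the TGF-beta response list had a median of -0.15. Without the 2 barcodes it was -1.73 for Cst3, -0.074 for Atp6v0c, -0.068 for Cd9 and -0.068 for that list, and also without the marker-rich members -0.96, -0.17, -0.079 and -0.079. After thinning it was -0.39 for Cst3, 0.30 for Ets1 and 0.29 for H2-Q7, and with equal weights -0.76 for Cst3. With no filter the TGF-beta response list stood at -0.081, and the median of the ILC1 and tissue residency list in WT tumour over WT healthy at 2.01. List medians over all 34 barcodes that turned without the 2 barcodes were activating receptors (0.30 without, -0.18 with), inhibitory receptors (0.18, -0.56), cytotoxic genes (0.42, -0.16), cytokine receptors (0.18, -0.17), transcription factors (0.49, -0.11) and the Klra family (0.17, -0.58). Leaving the 2 barcodes out multiplies the PPARg-/- tumour CPM of every gene they lack by 1.68, with no change in the counts of the 32 cells. The part of this scaling in each median was not separated. Among named genes, 14 of 64 counted in PPARg-/- tumour over WT tumour, by the call over all 34 barcodes, kept it in every setting where they were still measured. The number was 38 of 86 in WT tumour over WT healthy. Some genes were measured in fewer than the 14 settings, as Cybb in 9 and Apoe in 11, and both of these are counted as kept.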
